A study of Papio anubis with 25 samples.

Results

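GP2, SYCN, CUZD1 and SPINK1 encode proteins that pancreatic acinar cells pack into zymogen granules beside the digestive enzymes, and none of the 4 is itself a digestive enzyme. They were chosen by symbol, and all 4 of the 4 symbols were found among the 21287 genes of the deposited abundance table. Their levels were followed across 25 bulk RNA sequencing libraries from 5 olive baboons (Papio anubis), with 1 library of parotid gland, submandibular gland, sublingual gland, pancreas and liver from each animal. The first 4 baboons were females and the fifth was a male. No treatment, genotype or age was given and no treatment groups were named, and all tissue was flash frozen and sectioned before RNA isolation. The series was designed around amylase genes, and its stated comparisons within animals set the pancreas against the salivary glands and against the liver.

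Acinar cells store inactive enzyme precursors (zymogens) in dense granules and release them into the ducts when the gland is stimulated. GP2 is the main glycoprotein of the granule membrane, is held there by a lipid anchor, and carries a zona pellucida domain, a module with which secreted and membrane proteins polymerise. CUZD1 is a granule membrane protein with CUB and zona pellucida-like domains. SYCN (syncollin) is a small protein on the inner face of the granule membrane that affects granule release. SPINK1 is the pancreatic secretory trypsin inhibitor: it blocks trypsin that becomes active too early inside the acinar cell, inherited variants of it predispose to pancreatitis, and hepatocytes are also known to make it as an acute-phase protein. Salivary glands have secretory granules as well, with a partly different content.

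Levels are in TPM, an estimate of transcript abundance per length, scaled so that each library sums to the same total, so that genes and libraries can be set side by side but the number of reads behind a value is unknown. Errors are standard deviations (SD) over 5 animals. Each library is 1 section sample of 1 animal, so spread between animals cannot be split from that between sections. The limma model used below (a linear model per gene) takes out the overall level of each animal. Its p-values rest on the spread that remains, estimated over all 5 tissues together. In bulk tissue, fewer cells of a type and less RNA per cell cannot be told apart. Marker lists matched the pancreas and liver labels: the summed level of 10 measured acinar enzymes was 234578 to 270749 TPM in pancreas and at most 5310 TPM in any other library, and 4 hepatocyte markers summed to at least 38615 TPM in liver and at most 946 TPM elsewhere. The gland libraries were mixed. Markers of fat summed to 20189 TPM in parotid gland of baboon 2 and 6348 TPM in submandibular gland of baboon 5, lymphoid markers to 779 TPM in the parotid library of baboon 5, and skeletal muscle markers to 57400 TPM in the sublingual library of baboon 2. The salivary marker sum was only 2046, 2199 and 1447 TPM in the parotid, submandibular and sublingual libraries of baboon 2, within the range of pancreas and liver (947 to 4437 TPM). For baboons 1 and 4 the sublingual sum of oral mucosa markers was 108846 and 47417 TPM. The tests of the 4 genes and of most genes named below were recomputed without the first 4 of these libraries, and a call that changed is given beside its result. The submandibular library of baboon 2 stayed in that refit, although its fat markers summed to 2662 TPM and its red blood cell markers to 6014 TPM. It was left out only where baboon 2 was left out as a whole.

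All 4 genes were far higher in pancreas than in any other tissue. SPINK1 was the most abundant, at 15407 ± 3950 TPM (SD, n = 5), which placed it 14th among all genes by mean level. GP2 followed at 5743 ± 2875 TPM (rank 35), SYCN at 1173 ± 480 TPM (rank 76) and CUZD1 at 481 ± 147 TPM (rank 158). This order of SPINK1 above GP2 above SYCN above CUZD1 held in every pancreas library. GP2 and SYCN came close to each other only in baboon 5, at 1703 and 1582 TPM. Together the 4 genes made up 2.28 ± 0.146% of the pancreas library, with SPINK1 alone at 1.54%. In liver the 4 summed to 0.192%, nearly all of it SPINK1, and in the glands to between 0.0160% and 0.0249% by tissue mean.

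For each of the 4 genes the lowest pancreas library lay above the highest library of any other tissue. The lowest pancreas value was 30.3 times the highest other value for SYCN, 26.4 times for CUZD1, 10.001 times for GP2 and 4.53 times for SPINK1. Of the 14991 genes whose mean reached 1 TPM in some tissue, 1.09% showed this separation of pancreas from all other libraries. All 4 genes had a mean above that minimum in every tissue, so none entered the tests through pancreas alone.

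**Figure D1:**
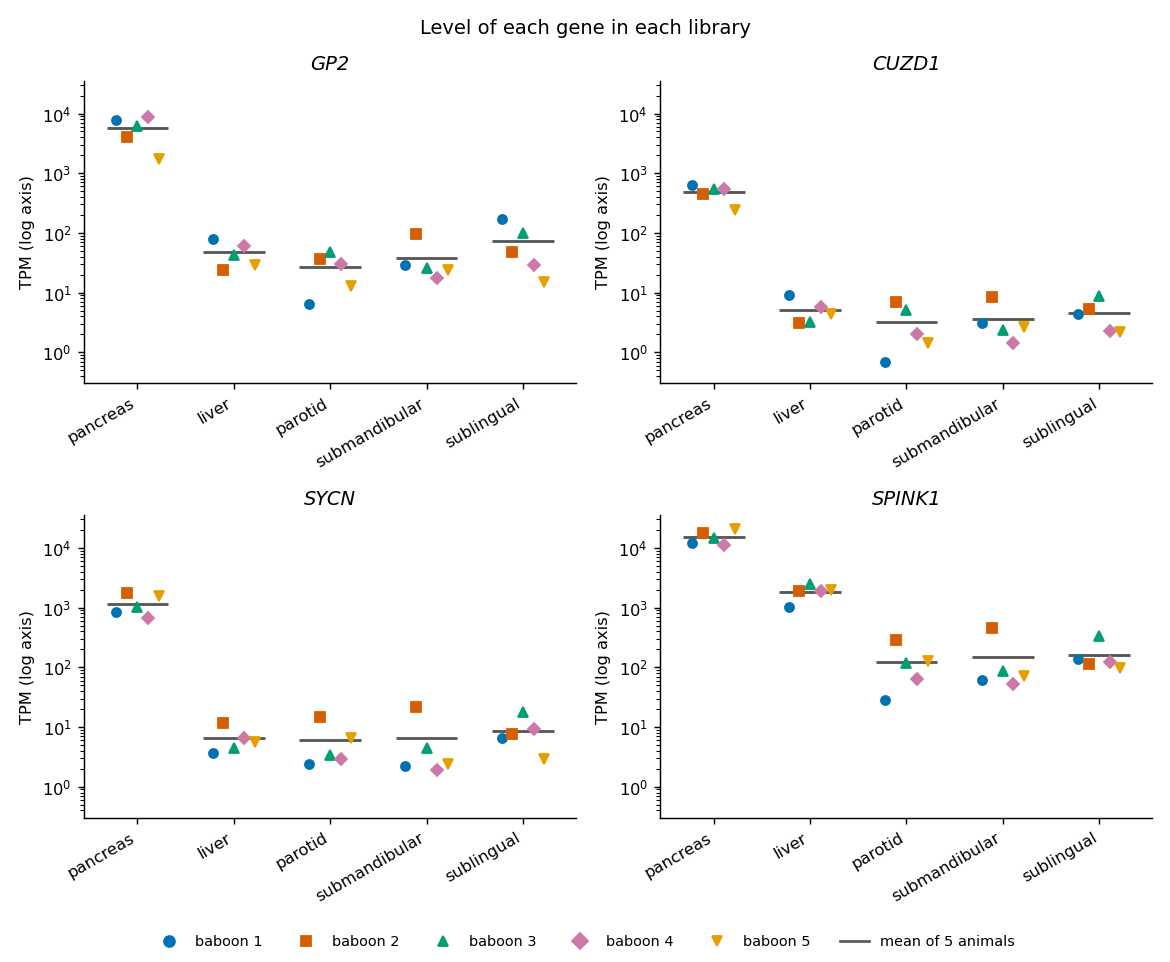
TPM of GP2, SYCN, CUZD1 and SPINK1 (log axis) in each of the 25 libraries by tissue, with points for single baboons and a line at the mean of 5. The pancreas points lie above all others in every panel, and liver lies apart from the glands only for SPINK1, at 1009 to 2492 TPM.

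GP2, the granule membrane glycoprotein, stood at 7902, 4086, 6276, 8750 and 1703 TPM in the pancreas of baboons 1 to 5. In liver it was 80.5, 24.1, 42.6, 60.2 and 28.6 TPM. In parotid gland it was 6.33, 36.8, 48.6, 29.6 and 12.7 TPM. The pancreas did not overlap with either, whereas liver and parotid overlapped. In submandibular gland the values were 28.8, 96.8, 25.7, 17.8 and 23.6 TPM, with baboon 2 far above the other animals. In sublingual gland they were 170, 48.6, 100.5, 28.6 and 14.9 TPM, the widest spread of GP2 in any tissue relative to its mean of 72.5 ± 63.6 TPM.

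By tissue mean GP2 ran from pancreas through sublingual gland (72.5 TPM), liver (47.2 ± 23.3 TPM) and submandibular gland (38.5 ± 32.8 TPM) to parotid gland (26.8 ± 17.3 TPM), and the lower 4 tissues overlapped with each other. In the limma model over all genes, GP2 was lower than in pancreas by a log2 fold change of -7.79 ± 0.60 (SE) in parotid (adjusted p = 1.552e-09), -7.26 in submandibular (5.492e-09) and -6.56 in sublingual gland (3.794e-08). The comparison of pancreas with liver gave 6.82 (adjusted p = 3.171e-09), a 113-fold difference, with pancreas higher in 5 of 5 animals.

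CUZD1, which shares the zona pellucida-like domain and the granule membrane with GP2, was 627, 449, 537, 547 and 244 TPM in pancreas. In liver it was 9.23, 3.11, 3.25, 5.66 and 4.31 TPM, and in parotid gland 0.680, 7.02, 5.07, 2.06 and 1.43 TPM. As for GP2, baboon 5 was the lowest pancreas and baboon 1 the lowest parotid library. CUZD1 in submandibular gland was 3.08, 8.56, 2.40, 1.45 and 2.64 TPM, and in sublingual gland 4.33, 5.31, 8.82, 2.30 and 2.22 TPM.

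Tissue means of CUZD1 outside pancreas, from 3.25 TPM in parotid to 5.11 TPM in liver, differed by less than their spread over animals. CUZD1 was lower than in pancreas by a log2 fold change of -6.99 ± 0.45 (SE) in parotid (limma adjusted p = 1.491e-10), -6.80 in submandibular (2.079e-10) and -6.49 in sublingual gland (6.396e-10). It was higher in pancreas than in liver by 6.32 (7.341e-11). The direction was the same in all 5 animals in each of these comparisons.

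SYCN, the granule protein syncollin, was 841, 1769, 1008, 662 and 1582 TPM in pancreas, with baboons 2 and 5 the highest, unlike GP2 and CUZD1. In liver it was 3.68, 11.9, 4.45, 6.55 and 5.70 TPM. In parotid gland it was 2.41, 14.7, 3.36, 2.91 and 6.57 TPM. Baboon 2 was the highest animal for SYCN in pancreas, liver, parotid and submandibular gland. SYCN in submandibular gland was 2.21, 21.9, 4.46, 1.91 and 2.42 TPM, and in sublingual gland 6.47, 7.57, 17.7, 9.14 and 2.89 TPM.

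The 4 tissues other than pancreas overlapped for SYCN, with means of 5.99 to 8.75 TPM. SYCN was lower than in pancreas by a log2 fold change of -7.55 ± 0.46 (SE) in parotid (limma adjusted p = 8.981e-11), -7.71 in submandibular (1.145e-10) and -6.99 in sublingual gland (3.275e-10). Between pancreas and liver its log2 fold change of 7.29 (adjusted p = 8.876e-12) was the highest of the 14991 genes tested.

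SPINK1, the trypsin inhibitor, was 12112, 18106, 14933, 11280 and 20606 TPM in pancreas. In liver it was 1009, 1896, 2492, 1895 and 1998 TPM. The lowest liver library was still above the highest gland library, so SPINK1 had 3 separate levels: pancreas, liver and glands. Its rank by mean level in liver was 69 among all genes, from 52 to 103 over animals. In parotid gland SPINK1 was 28.5, 284, 117, 63.6 and 128 TPM. In submandibular gland it was 62.4, 463, 88.5, 52.3 and 72.7 TPM, and in sublingual gland 138, 114, 341, 124 and 98.3 TPM. The 3 glands overlapped, and the highest libraries were those of baboon 2 in parotid and submandibular gland and of baboon 3 in sublingual gland.

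SPINK1 was lower than in pancreas by a log2 fold change of -7.29 ± 0.50 (SE) in parotid (limma adjusted p = 3.181e-10), -7.22 in submandibular (4.329e-10) and -6.68 in sublingual gland (1.831e-09). The difference from liver was smaller, a log2 fold change of 3.07 for pancreas against liver (adjusted p = 5.003e-05), or 8.41-fold, with pancreas higher in 5 of 5 animals. SPINK1 in liver stood at 8.33% to 16.8% of its level in the pancreas of the same animal. For GP2, SYCN and CUZD1 that percentage was at most 1.77% in any animal.

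**Figure D2:**
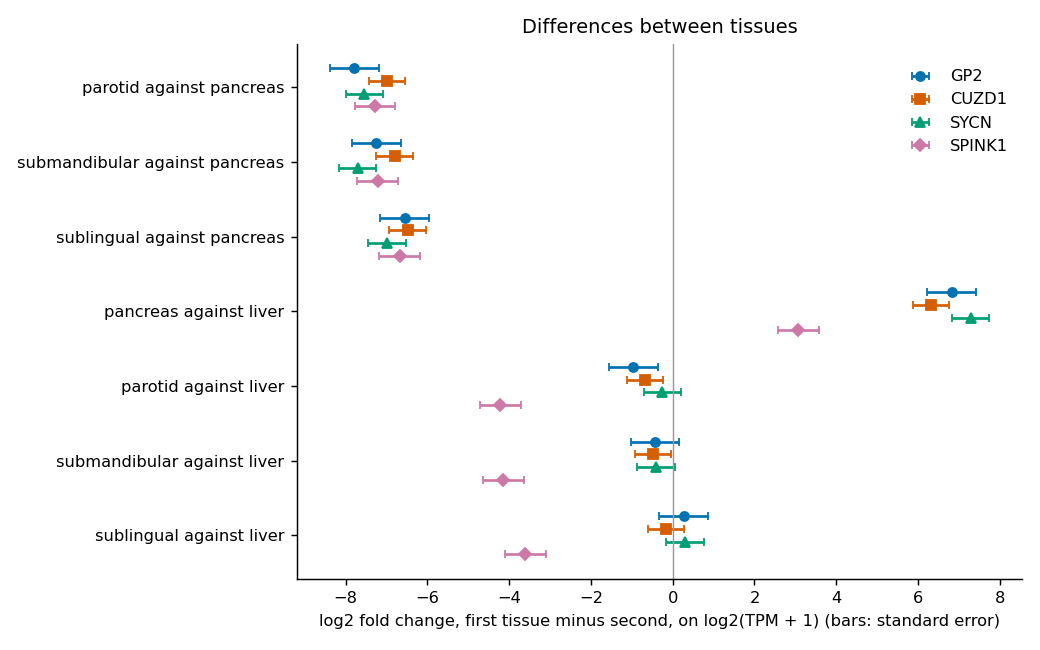
Log2 fold changes (points) with standard errors (bars) from the limma model for the 4 genes in 7 comparisons: each gland against pancreas, pancreas against liver, and each gland against liver. All 4 genes lie beyond 6 in size against pancreas except SPINK1 in liver, at 3.07. Between gland and liver SPINK1 lies at -4.21 to -3.61 and the other genes at -0.96 to 0.30.

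A gene was called when its limma adjusted p was under 0.05 and its log2 fold change at least 1 in size. All 4 genes were called lower in parotid than in pancreas, where 2.4% of tested genes were called lower. The same held in submandibular gland (4 of 4, against 2.81% of genes) and sublingual gland (4 of 4, against 2.49%), and 4 of 4 were called higher in pancreas than in liver, against 2.86% of genes. In the opposite direction, 1.41%, 1.27% and 6.97% of genes were called higher in parotid, submandibular and sublingual gland than in pancreas, and 14.6% lower in pancreas than in liver. The median of the 4 log2 fold changes was -7.42, -7.24, -6.62 and 6.57 in these comparisons, beside 0.45, 0.17, 0.63 and -0.44 over all tested genes. Scaling the libraries by trimmed means moved those last medians to 0.05, 0.03, 0.10 and -0.02, and left all 4 genes called in each comparison. The number of all genes called in either direction was less stable than the calls of the 4 genes. It was 572 for parotid against pancreas, and from 315 (without baboon 3) to 1255 (median-of-ratios scaling) over the alternatives. For submandibular gland it was 611 and from 326 (without baboon 3) to 1320 (trimmed-mean scaling), and for sublingual gland 1419 and from 393 (without baboon 1) to 3011 without baboon 2 and 5173 without the 4 gland libraries. For pancreas against liver it was 2623 and from 1722 (without baboon 3) to 4313 (only the tissues compared).

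Between the glands and liver only SPINK1 was called. It was lower in parotid by a log2 fold change of -4.21 (limma adjusted p = 5.439e-07), in submandibular gland by -4.15 (6.712e-07) and in sublingual gland by -3.61 (6.493e-06), each in 5 of 5 animals. That is 1 of 4 genes, against 10.9%, 13.9% and 9.52% of all genes called lower than liver in these 3 comparisons and 13.8%, 16.5% and 15.4% called in either direction. GP2, SYCN and CUZD1 differed by -0.96 to 0.30 on the log2 scale between gland and liver, with adjusted p from 0.332 to 0.861, and the sign of several of these small differences depended on the scaling or on 1 animal.

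None of the 4 genes was called between any pair of glands. The widest difference was that of GP2, lower in parotid than in sublingual gland by a log2 fold change of -1.23 (limma adjusted p = 0.5527), in 4 of 5 animals. Over all genes, 0% were called between parotid and submandibular gland (254 genes at an unadjusted p under 0.05), 0.113% between parotid and sublingual gland and 0.0667% between submandibular and sublingual gland. These shares rested on a few libraries. The 17 genes called between parotid and sublingual gland became 404 without baboon 2 and 3119 without the 4 gland libraries, and the 10 between submandibular and sublingual gland became 2627 and 1761, while none of the 4 genes was called in either case.

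The low levels outside pancreas were set beside those of the acinar enzymes in the same libraries. Relative to the pancreas mean, GP2 stood at 0.822% in liver, 0.466% in parotid, 0.671% in submandibular and 1.26% in sublingual gland. SYCN stood at 0.551%, 0.511%, 0.561% and 0.746%, and CUZD1 at 1.06%, 0.676%, 0.754% and 0.956%. The 10 enzymes covered much the same ground, with 0.821% to 1.15% in liver, 0.462% to 0.992% in parotid, 0.613% to 1.26% in submandibular and 0.839% to 1.09% in sublingual gland. SPINK1 was at 0.805%, 0.959% and 1.06% in the 3 glands but at 12.1% in liver. RBPJL and PTF1A, subunits of the factor complex that drives acinar enzyme genes, were at 1.01% and 0.905% of their pancreas mean in liver and at 0.288% to 0.972% in the glands.

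In the glands, though not in pancreas or liver, the library that stood out for the enzyme sum was in most cases the one that stood out for the 4 genes. The enzyme sum was 308, 2906, 1986, 933 and 1407 TPM in the parotid libraries of baboons 1 to 5, and baboon 1 was lowest for the sum and for all 4 genes. Baboon 2, with the highest parotid sum, was highest for SYCN, CUZD1 and SPINK1, while GP2 was highest in baboon 3. In submandibular gland it was 1089, 5310, 1050, 731 and 955 TPM, and baboon 2 was highest for all 4. In sublingual gland it was 1945, 1590, 4499, 1666 and 1330 TPM, and baboon 3 was highest for SYCN, CUZD1 and SPINK1, with GP2 highest in baboon 1. In liver it was 2615, 2253, 1445, 2537 and 2247 TPM. Baboon 1, with the highest liver sum, had the highest GP2 and CUZD1 but the lowest SYCN and SPINK1, and baboon 3, with the lowest sum, had the highest SPINK1. In pancreas the sum was 237012, 235923, 249956, 234578 and 270749 TPM, and its highest library, baboon 5, had the lowest GP2 and CUZD1 and the highest SPINK1. Whether pancreatic RNA in the other libraries contributed to these levels was not tested.

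The ratio of each gene to the enzyme sum, as log2((gene + 0.1) / (sum + 0.1)), was compared with that in pancreas by a two-sided exact permutation test over 10 libraries. SPINK1 in liver was the one combination whose range did not overlap with that of pancreas: its log2 ratio was -1.37, -0.25, 0.79, -0.42 and -0.17 in liver, and between -4.38 and -3.70 in pancreas. The mean difference of 3.75 makes SPINK1 13.4 times as abundant per unit of enzyme RNA in liver as in pancreas, in 5 of 5 animals. The exact p was 0.00794, the smallest this design can give, and 0.127 after adjustment over 16 tests, so that no single combination could pass the adjustment. A limma model of the same ratio over all genes, added after the values were seen, gave a 95% interval of 2.97 to 4.52 (adjusted p = 5.265e-10), in a comparison where 99.5% of all genes were called in either direction.

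The other 15 ratios all overlapped with pancreas, and their exact permutation p ran upward from 0.0952. That test does not use the pairing by animal. Within animals, the SYCN ratio was lower in liver than in pancreas in 5 of 5 and the SPINK1 ratio was higher in submandibular gland than in pancreas in 5 of 5. An exact sign-flip test over the 5 pairs gave both the smallest p it can give, which stayed above the threshold (adjusted p = 0.333), as it did for SPINK1 in liver. For GP2 in liver the difference was -0.04 with a limma 95% interval of -0.95 to 0.87, and for SYCN in liver it was -0.69 with an interval of -1.59 to 0.22. In that limma model none of the 15 was called, where 99.7%, 99.6% and 99.6% of all genes were called in parotid, submandibular and sublingual gland against pancreas. CUZD1 differed by 0.15 to 0.32 over the 4 tissues, and SPINK1 by 0.26 to 0.39 over the 3 glands. Intervals of this width leave room for ratios that differ by up to 2-fold or more, so they do not show that the ratios were equal. In the sublingual libraries the log2 ratio of SPINK1 to enzymes kept within -3.82 to -3.72, the narrowest range among the 4 genes in any tissue.

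**Figure D3:**
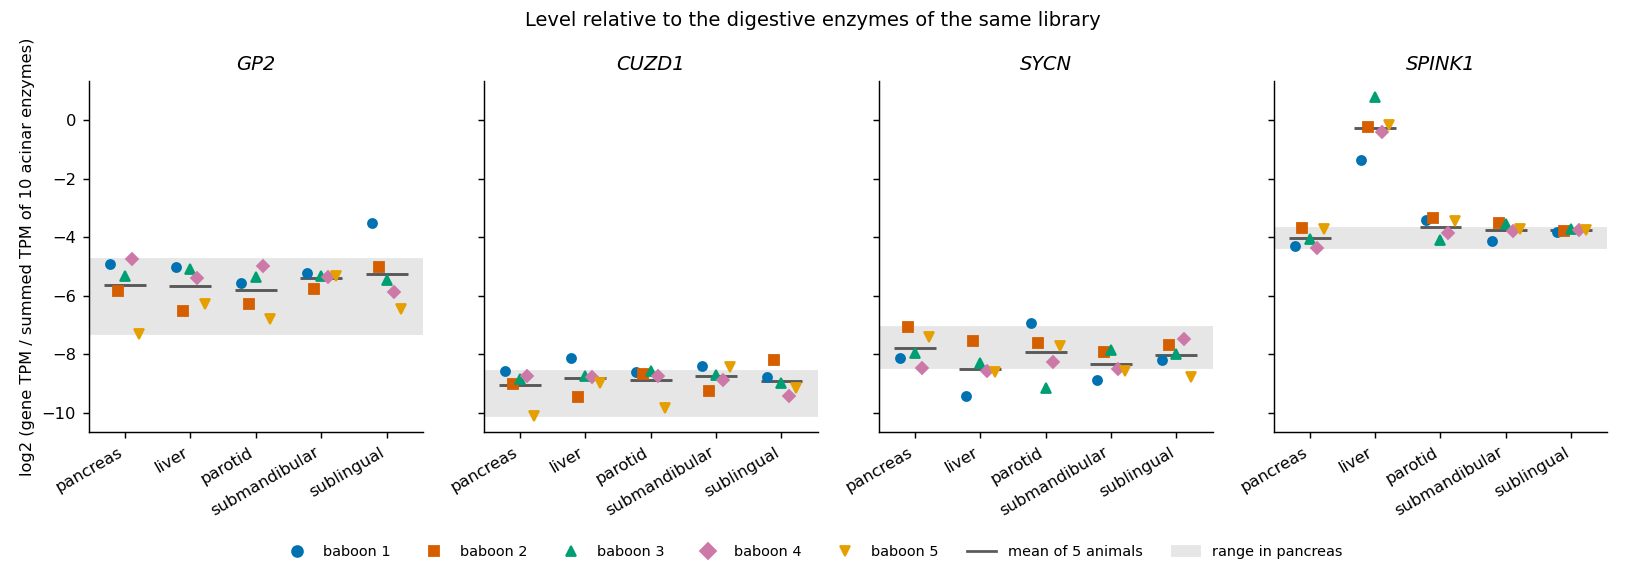
Log2 ratio of each gene to the sum of 10 acinar enzymes in every library, by tissue, with a grey band for the range of the 5 pancreas libraries. Most points fall in or near the band, whereas all 5 liver points of SPINK1 lie above it, at -1.37 to 0.79, as does the sublingual point of baboon 1 for GP2, at -3.51.

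GP2 in the sublingual library of baboon 1 departed from the other granule genes. Its level of 170 TPM there was the highest of GP2 outside pancreas, and its log2 ratio to the enzymes of -3.51 lay above the pancreas range of -7.31 to -4.74. The ratio of GP2 to CUZD1 was 39.3 in that library, against 12.6 in the pancreas of the same animal and at most 12.4 in the other sublingual libraries. The same library had the highest sum of oral mucosa markers (108846 TPM), but the sublingual library of baboon 4, with 47417 TPM of those markers, had GP2 at 28.6 TPM and a GP2 to CUZD1 ratio of 12.4. The part of the mucosa in the GP2 level was not tested.

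In the pancreas the 4 genes did not vary together. GP2 varied most between animals, 5.14-fold from lowest to highest with a coefficient of variation of 50.1%, followed by SYCN (2.67-fold, 40.9%), CUZD1 (2.57-fold, 30.5%) and SPINK1 (1.83-fold, 25.6%). Among 269 genes whose pancreas mean was 200 TPM or more the median coefficient was 25.4%, and 88.5% of them varied less than GP2, 82.2% less than SYCN, 65.8% less than CUZD1 and 50.2% less than SPINK1. The 10 enzymes spanned 16.99% to 49.0%, with CPB1, the carboxypeptidase B precursor, at the top.

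The genes fell into opposite orders. GP2 ran from baboon 4 through 1, 3 and 2 to 5, and CUZD1 from baboon 1 through 4, 3 and 2 to 5, so that the male, baboon 5, was lowest for both, at 0.296 and 0.507 times the mean of the 5 animals. SYCN ran from baboon 2 through 5, 3 and 1 to 4, and SPINK1 from baboon 5 through 2, 3 and 1 to 4, so that baboons 2 and 5 were the highest pair for both. The ratio of GP2 to SYCN was therefore 9.39, 2.31, 6.23, 13.2 and 1.08 in the pancreas of baboons 1 to 5, while that of SPINK1 to SYCN stayed between 10.2 and 17.03. With 1 male, sex and individual cannot be told apart. Islet markers, which stand for endocrine tissue in the section, summed to 5959, 575, 4874, 747 and 13816 TPM in the 5 pancreas libraries, highest in baboon 5, and their part in these orders was not tested.

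Some other acinar genes shared one of these orders, and others, such as CPA1 and RBPJL, shared neither. CPB1 and PTF1A had the same order of animals as GP2, and BHLHA15, a transcription factor of secretory cells, had that of CUZD1. CTRB2, a chymotrypsinogen picked out after its values were seen, had the order of SPINK1. PLA2G1B, the pancreatic phospholipase A2 precursor, had baboon 2 highest and baboon 4 lowest, as SYCN did. With 5 animals no correlation was computed, and shared orders can arise by coincidence among many genes.

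**Figure D4:**
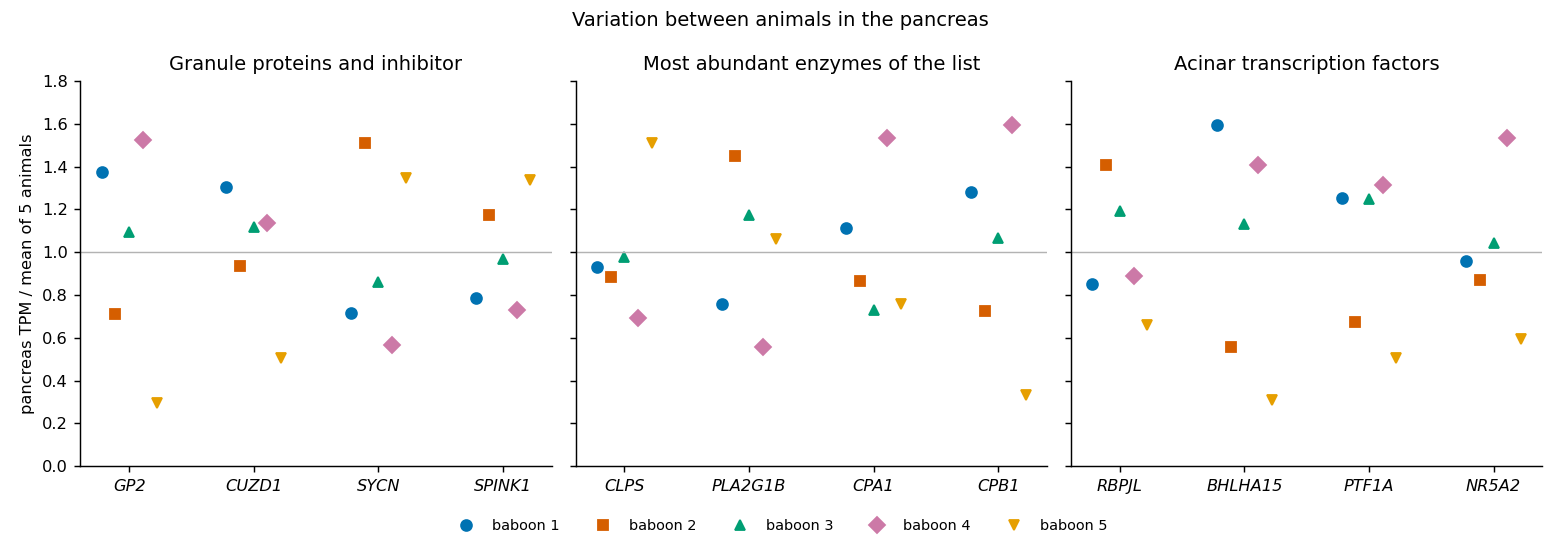
Level in each pancreas library divided by the mean of the 5 animals, for the 4 genes, 4 acinar enzymes and 4 acinar transcription factors, with 1 point for each baboon. GP2, CUZD1, CPB1 and the 4 transcription factors are lowest in baboon 5, and SYCN, SPINK1, PLA2G1B and CLPS in baboon 4. CPA1 is lowest in baboon 3, at 0.732, and RBPJL is highest in baboon 2, as SYCN is.

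The GP2 to SYCN ratio of an animal was not carried over evenly to its other tissues. In liver it was 21.8, 2.03, 9.57, 9.18 and 5.01 for baboons 1 to 5, with baboon 1 highest and baboon 2 lowest. In parotid gland it was 2.63, 2.50, 14.4, 10.2 and 1.93, where baboon 5 was lowest as in pancreas. In submandibular gland it was 13.0, 4.43, 5.76, 9.31 and 9.76, and in sublingual gland 26.3, 6.41, 5.69, 3.13 and 5.15. Baboon 2 was among the 2 lowest animals in pancreas, liver, parotid and submandibular gland.

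Genes with the most similar pattern were ranked by Pearson r of log2(TPM + 1) over all 25 libraries, among 6161 genes; libraries of a tissue and of an animal are not independent, and the high values follow from the gap between pancreas and the rest. CPB1 was nearest to GP2 (r = 0.992), followed by CUZD1, CELA1, CEL and PNLIPRP1 (0.981 to 0.983). SERPINI2, a serine protease inhibitor family member, was nearest to CUZD1 (0.998), followed by ERP27, CPB1, PNLIPRP1 and CPA1. PLA2G1B was nearest to SYCN (0.990), followed by ZG16, a lectin-like granule protein, CELA3B, CLPS and AQP12B. SPINK1 had lower values, led by NRG4 (0.959), AQP8 (0.943) and LYPD1 (0.938).

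Without the pancreas libraries, over the other 20, the lists of GP2 and CUZD1 still held pancreatic enzymes. CPB1 led that of GP2 (r = 0.919) with CELA1, CEL, PNLIPRP1 and CUZD1, and SERPINI2 led that of CUZD1 (0.965) with CELA1, PNLIPRP1, CPB1 and ERP27. SYCN, at a few TPM in these tissues, was nearest to PLA2G1B (0.881) and then to MPHOSPH10, DCUN1D5, PSMD1 and EIF5B (0.846 to 0.870). The list of SPINK1 changed wholly, to RCL1 (0.964), CFI (0.963), GSTO1 (0.958), SLC25A13 (0.956) and BDH2 (0.953), among which CFI is a complement protease made by the liver.

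GP2 and CUZD1 were compared with the rest of the zona pellucida domain family, of which 15 genes were in the table and 8 passed the minimum of 1 TPM. In each gland these 2 were the only ones called lower than in pancreas. Over all genes, 2.4%, 2.81% and 2.49% were called lower in parotid, submandibular and sublingual gland. The medians over the 8 family genes were 0.39, 0.22 and 0.24 in the same order. DMBT1, a scavenger-like glycoprotein of mucosal and glandular secretions, was called higher in sublingual gland than in pancreas, by a log2 fold change of 3.48 (limma adjusted p = 0.01398). Its sublingual levels of 114, 0.706, 36.8, 3.57 and 547 TPM spanned a wide range, and the call was lost when baboon 1, 3 or 5 was left out or when only the tissues compared were fitted (adjusted p up to 0.114). TECTB, known as a component of the tectorial membrane of the inner ear, was 14.3, 25.5, 2.67, 18.5 and 4.62 TPM in liver and at most 0.120 TPM in pancreas. OIT3, picked out after its values were seen, was 4.53 to 10.4 TPM in liver and 0.0774 to 0.212 TPM in pancreas. Both passed the minimum of 1 TPM through liver alone and are given without a test. ENG, the endothelial co-receptor of TGF-beta ligands, was not called in any of the comparisons with pancreas.

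SPINK1 was the only one of 6 tested SPINK genes called lower than pancreas in any gland. Over all genes, 2.4%, 2.81% and 2.49% were called lower in parotid, submandibular and sublingual gland. The medians over the 6 SPINK genes were -0.07, 0.28 and 0.61 for the 3 glands. SPINK5, an inhibitor of epidermal kallikreins, was called higher in sublingual gland than in pancreas, by 4.42 (limma adjusted p = 0.01915). Its sublingual levels were 645, 4.94, 25.0, 1172 and 4.53 TPM, high in baboons 1 and 4, and the call was lost when baboon 1, 3 or 4 was left out or when only the tissues compared were fitted (adjusted p up to 0.162). SPINK7, an inhibitor of stratified epithelia, reached 3124, 13.1, 28.2, 6857 and 15.7 TPM in sublingual gland, and its log2 fold change of 4.96 over pancreas was not called (adjusted p = 0.05768, from 0.0135 to 0.295 over the alternatives). KRT13, a keratin of oral epithelium, was 50365, 228, 72.4, 12518 and 36.4 TPM in the same libraries, high in the same animals, and its part in the SPINK5 and SPINK7 levels was not tested. SPINK4, picked out after its values were seen, was listed at 0 in all 5 pancreas libraries and at 0, 3.63, 2.30, 3.27 and 0 TPM in liver, and is given without a test because it passed the minimum of 1 TPM through liver alone.

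**Figure D5:**
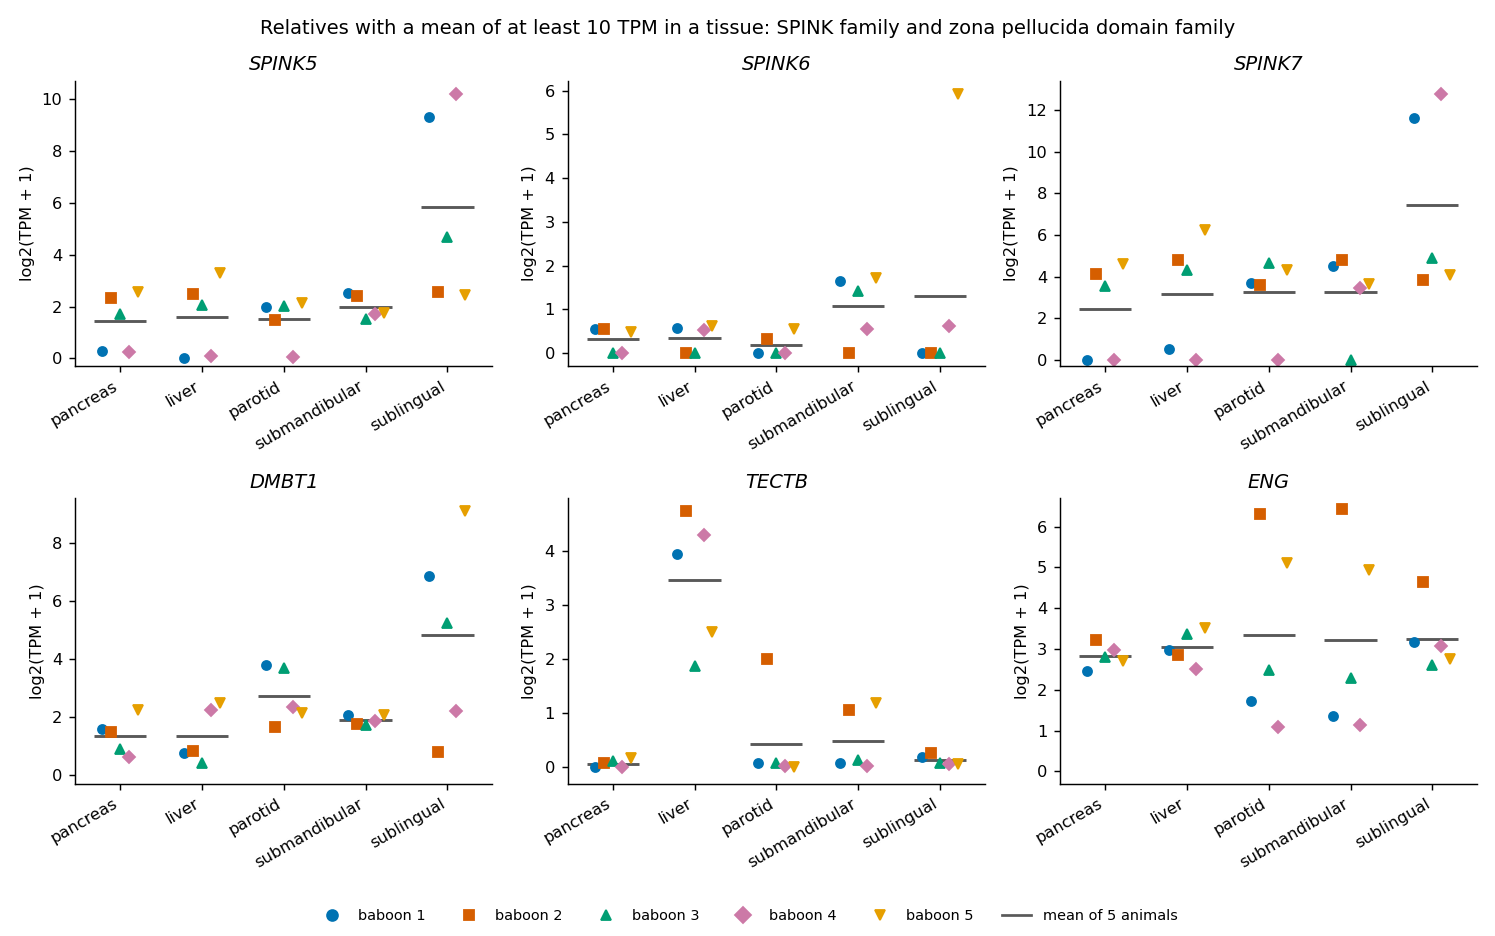
Log2(TPM + 1) of SPINK5, SPINK6, SPINK7, DMBT1, TECTB and ENG in every library by tissue, with points for single baboons and a line at the mean. No pancreas library stands above the other tissues for these 6 relatives, SPINK5 and SPINK7 are high in sublingual gland of baboons 1 and 4, and TECTB is high in liver.

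Among other secreted and ER proteins of the pancreas, 7 of a list of 13 were in the table. All 7 were called lower in parotid and in sublingual gland than in pancreas and 6 of 7 in submandibular gland, and 7 of 7 were higher in pancreas than in liver, with medians of -6.45, -6.04, -6.30 and 5.28. Over all genes, 2.4%, 2.49% and 2.81% were called lower in these glands, and 2.86% higher in pancreas than in liver. One of the 7, REG1B, passed the minimum of 1 TPM through pancreas alone, so that the counts of this list include a gene that had to differ. ZG16 was close to the 4 granule genes, at -7.53 in parotid and 6.73 for pancreas against liver (limma adjusted p = 7.211e-10 and 7.898e-10). KLK1, tissue kallikrein, which salivary ducts also make, stood at 29.2% of its pancreas mean in parotid, 56.4% in submandibular and 36.2% in sublingual gland, and was not called in submandibular gland (-1.59, adjusted p = 0.5062). Its calls in parotid (-3.26, adjusted p = 0.03015) and sublingual gland (-3.68, 0.009781) were lost when baboon 1 or 4 was left out, and the parotid call also without baboon 2 or 5, without the 4 gland libraries, without the animal as a term or with no filter on low values (adjusted p up to 0.419), which makes 7 of 13 alternatives. The 10 measured acinar enzymes of a list of 19 were all called lower in each gland and lower in liver, with medians of -7.62, -7.45, -6.88 and, for pancreas against liver, 6.74. The shares of all genes called in these comparisons were those given above for the list of 7.

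Genes for the machinery that moves and fuses granules had log2 fold changes nearer to those of all genes. The medians over 11 measured genes of granule membrane and fusion proteins were 0.40, 0.28 and 0.41 for parotid, submandibular and sublingual gland against pancreas, beside 0.45, 0.17 and 0.63 over all genes. None of the 11 was called, where 572, 611 and 1419 of 14991 genes were called in either direction, so a count of 0 was near the background. VAMP8, a granule SNARE protein, differed from pancreas by 0.66 in parotid (limma adjusted p = 0.4893), 0.33 in submandibular (0.9199) and 1.37 in sublingual gland (0.1093). RAB3D, a small GTPase of secretory granules picked out after its values were seen, was the 1 of 11 called higher in pancreas than in liver (2.68, adjusted p = 0.0004138), against 2.86% of all genes.

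Other proteins that restrain or set off trypsin activity were measured for 12 genes. Of these, 4, 3 and 2 were called lower in parotid, submandibular and sublingual gland than in pancreas, against 2.4%, 2.81% and 2.49% of all genes, and none was called higher, against 1.41%, 1.27% and 6.97%. SERPINI2 was lower in all 3, by -6.45, -6.30 and -6.04 (limma adjusted p at most 3.275e-10). The others were SERPINA3 in parotid (-3.44, adjusted p = 0.003715) and submandibular gland (-3.70, 0.001713) and ITIH4 in the same 2 glands (-1.69, 0.01107, and -2.06, 0.001661). CASR, the calcium-sensing receptor, picked out after its values were seen, was called in parotid and sublingual gland, but at 0.804 to 2.47 TPM in pancreas and at most 0.670 TPM elsewhere it passed the minimum of 1 TPM through pancreas alone, so its calls are not evidence of a difference. In parotid gland the ITIH4 call was lost without baboon 1, 2 or 4, without the 4 gland libraries or with only the tissues compared (adjusted p up to 0.163). Between pancreas and liver 2 were called higher in pancreas and 8 lower, against 2.86% and 14.6% of all genes, with a median of -2.62. The 2 were SERPINI2 (5.82, adjusted p = 3.245e-11) and CASR, with the same limit as above. Among the 8 were plasma protease inhibitors made by hepatocytes: SERPINA1, alpha-1-antitrypsin (-6.17, 2.932e-10), AMBP, the precursor of bikunin (-6.58, 7.895e-12), ITIH4 (-5.50, 8.837e-11) and SERPINA3, alpha-1-antichymotrypsin (-2.58, 0.01138), the last of which was lost under both other scalings and without baboon 3 or 4 (adjusted p up to 0.0974).

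Of the 5 transcription factors of the acinar cell, 4 were called lower than pancreas in each of parotid and submandibular gland and 5 in sublingual gland. Over all genes, 2.4%, 2.81% and 2.49% were called lower in the same glands. The counts include PTF1A, which had to differ because it passed the minimum of 1 TPM through pancreas alone. RBPJL was lower in parotid by a log2 fold change of -7.16 (limma adjusted p = 8.981e-11) and higher in pancreas than in liver by 6.37 (4.081e-11), while PTF1A, which passed the minimum through pancreas alone, had a mean of 45.3 TPM there and at most 0.441 TPM elsewhere. BHLHA15 was at 62.0% of its pancreas mean in parotid and 46.1% in submandibular gland and was not called there (-1.08 and -1.27, adjusted p = 0.3563 and 0.4631). Its call in sublingual gland (-3.12, adjusted p = 0.003873) was lost without baboon 1 (0.05334). NR5A2 was at 33.3% of its pancreas mean in liver (1.33 for pancreas against liver, adjusted p = 0.006602, and up to 0.0916 without baboon 3 or 4 or with a pseudocount of 0.1). GATA4 was not called between pancreas and liver, where it stood at 69.9% of its pancreas mean.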

How the data were processed

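Per the labels' protocols, total RNA from thin sections of flash-frozen tissue was DNase-treated and sequenced by a commercial provider as paired reads on an Illumina HiSeq. The values the authors deposited are TPM per gene from kallisto, per the submitters' processing notes, which also name FastQC, MultiQC, cutadapt, HISAT2, SAMtools, featureCounts and DESeq2 without a role. Versions, the kallisto index and the genome build are not given in the sources used here. Every library summed to 1000000 TPM within rounding, so very abundant genes lower the values of the rest, the depth per library is unknown, and precision rests on 5 animals.

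The 4 genes were matched by symbol, also to the RefSeq gene table of Panubis1.0, and no coordinates or sequences were used. The 14991 genes whose mean reached 1 TPM in some tissue were fitted with limma 3.58.1 in R 4.3.3 on log2(TPM + 1), which understates changes of low genes, with tissue and animal as terms over all 25 libraries. P-values were adjusted by Benjamini-Hochberg over genes within each of 10 tissue pairs. On simulated data for pancreas against liver (14991 genes) the model recovered 45 of 100 changes of 2 on the log2 scale and 99 of 100 of 4. The changed genes were drawn from genes of higher mean and limited spread, and the noise was independent with no animal effect. These rates therefore do not describe low or highly variable genes. Animal numbers in the titles pair the tissues, because same-numbered libraries come from 1 animal. Deviations from tissue means correlated at 0.161 on average within an animal (50 pairs) and -0.0354 between animals (200 pairs). The second value follows largely from the first, because deviations were centred within each tissue, so it is not separate evidence of the pairing. Ratios were tested with an exact permutation test. Python 3.11.15 with pandas 2.3.3, numpy 2.4.6, scipy 1.17.1 and matplotlib 3.10.9 was used.

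Named genes were the 4 genes, relatives of at least 10 TPM, up to 4 highest genes of each list and the 5 most similar genes, among genes of at least 10 TPM. The 4 genes and all lists were chosen with earlier results of these data known. Of the enzyme list, 9 of 19 symbols were not matched.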

Additional observations from a re-analysis of the deposited data

Results flagged for a closer look

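Of 45 groups of 5 libraries examined (TPM and ratios of the 4 genes and the enzyme sum in each tissue), 9 held a library far from the rest by Dixon's criterion (gap over range above 0.71). For independent, normally distributed values that criterion flags about 1 in 20. These groups share libraries and enzyme sums, and TPM values can be skewed, so the number of flags cannot be set against that rate. Baboon 2 was the highest submandibular library for GP2 (96.8 TPM), SYCN (21.9 TPM), CUZD1 (8.56 TPM) and SPINK1 (463 TPM), and the enzyme sum in that library stood apart in the same way (5310 TPM). These 5 values share 1 library. Its log2 ratio of GP2 to the enzyme sum was the lowest of the submandibular libraries, at -5.78, so that GP2 stood out there less than the enzymes did. Baboon 3 was the highest sublingual library for SPINK1 (341 TPM) and for the enzyme sum (4499 TPM). The parotid library of baboon 5, the one with high lymphoid markers, had the lowest parotid log2 ratio of CUZD1 to the enzyme sum, at -9.85. The pancreas library of the same animal also had the lowest CUZD1 ratio of its tissue, at -10.12. Whether the lymphoid tissue or the animal accounted for the parotid value was not tested.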

How the results depend on the processing

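In all 13 alternatives of the limma model (no replicate block, only the tissues compared, trimmed-mean and median-of-ratios scaling, other filters and pseudocount, each animal left out, and 4 gland libraries left out) each of the 4 genes was called in the same comparisons. With no replicate block, 4 of 4 were called lower in each gland than in pancreas and 4 of 4 higher in pancreas than in liver. Counts of all called genes moved more: from 572 to between 315 and 1255 (parotid against pancreas), 611 to 326 and 1320 (submandibular), 1419 to 393 and 5173 (sublingual), 2623 to 1722 and 4313 (pancreas against liver), and against liver from 2064 to 1335 and 3463 (parotid), 2474 to 1535 and 3567 (submandibular) and 2316 to 1543 and 3794 (sublingual). SPINK1 between pancreas and liver ranged from 2.94 to 3.79. No member ratio to the enzyme sum passed the adjusted exact test (0 of 16), and 1 passed in limma over all genes, a fit added after seeing the data.

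Only differences that were not called changed sign; the cause was not tested. Leaving out 1 animal, the ratio differences from pancreas ranged from -0.30 to 0.12 (GP2, liver), -0.22 to 0.42 (GP2, submandibular), -0.47 to 0.13 (SYCN, parotid), -0.53 to 0.0588 (SYCN, sublingual), -0.0173 to 0.46 (CUZD1, submandibular) and -0.0464 to 0.37 (CUZD1, sublingual). Log2 fold changes then ranged from -0.0695 to 0.57 (SYCN, sublingual against liver), -0.51 to 0.0413 (CUZD1, the same), and, for parotid against submandibular gland, -0.0881 to 0.33 (SYCN), -0.45 to 0.0799 (CUZD1) and -0.28 to 0.19 (SPINK1). A pseudocount of 1 gave 0.15 for the SYCN ratio in parotid. Without the 4 gland libraries the GP2 ratio in parotid was 0.32, the CUZD1 ratio in sublingual -0.0248, and SYCN in parotid against submandibular -0.22. Trimmed-mean and median-of-ratios scaling gave 0.0636 and 0.0819 for GP2 in submandibular against liver, -0.0730 and -0.0891 for SYCN in parotid against submandibular, and, in submandibular against sublingual, 0.13 and 0.10 for CUZD1 and 0.0924 and 0.0559 for SPINK1. Depth is unknown, so no counting error is attached to the values of a few TPM outside pancreas.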

Other observations

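SPINK7 was listed at low levels in some libraries of pancreas and liver, where it was 0, 16.4, 10.7, 0 and 23.6 TPM and 0.451, 26.4, 18.8, 0 and 74.2 TPM in baboons 1 to 5. The 2 animals at or near 0 in both organs, baboons 1 and 4, were those with the highest sublingual SPINK7. The oral keratin KRT13 was 0.594, 282, 158, 4.65 and 54.7 TPM in the same pancreas libraries and 4.49, 266, 30.5, 0.532 and 152 TPM in liver. It was also lowest in baboons 1 and 4, but highest in baboon 2, where SPINK7 was highest in baboon 5. Whether oral mucosa RNA contributed to SPINK7 in these organs was not tested.

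The log2 ratio of SPINK1 to the enzyme sum was lowest in liver in baboon 1 (-1.37), whose SPINK1 level of 1009 TPM was the lowest in liver, while its GP2 (80.5 TPM) and CUZD1 (9.23 TPM) were the highest in liver. The ratio of SPINK1 to GP2 in liver was 12.54 in that animal and 31.5 to 78.5 in the others.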
